A study of Homo sapiens with 4 samples.

Results

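The comparison asked what erlotinib added in tumours that were already under agrimoniin. It set the combination library (agrimoniin and erlotinib) against the agrimoniin library, and its members were all barcodes of these 2 libraries. They numbered 548 of the 1056 barcodes in the series, 251 in combination and 297 in agrimoniin. A barcode carried transcripts of human and of mouse genes, and each species' transcripts of a barcode were treated as a unit, called its human part and its mouse part. A part entered the comparison if it had 500 or more unique transcript counts (UMIs) from 250 or more genes, and no more than 25% of them mitochondrial. That left 528 human parts (245 in combination, 283 in agrimoniin) of 1013 in the series, and 546 mouse parts (249 and 297) of 1053.

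The tumours grew from PANC-1, a human pancreatic ductal adenocarcinoma cell line, placed under the skin of nude mice, a host that lacks T cells. There was 1 single-cell library each of control, agrimoniin, erlotinib and combination tumours. The labels give no dose, no treatment time, no age or sex of the mice and no number of tumours per library. In the design text of the series the added compound is written "cyranin". The sample labels say erlotinib, and they were followed. Both libraries compared here had agrimoniin, so the labelled difference between them is erlotinib. With 1 library a side there was no replicate and no test, and every difference is one between 2 libraries. Beside many values stands the pair without agrimoniin, erlotinib against control, which shares no library with this comparison.

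Agrimoniin is an ellagitannin, a large plant polyphenol of agrimony. Erlotinib blocks the tyrosine kinase of the epidermal growth factor receptor, EGFR. This receptor is switched on by secreted or shed ligands such as epiregulin, amphiregulin and heparin-binding EGF, and signals through RAS, RAF and MEK to the kinase ERK. ERK activity in turn raises transcripts of its own brakes, among them the phosphatase gene DUSP6 and the Sprouty genes, and of transcription factors such as FOSL1. In these tumours the cancer cells sit among host fibroblasts, macrophages and vessels, which can be read here as mouse transcripts.

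The kept human parts held 3690705 UMIs in agrimoniin and 3109510 in combination, and the kept mouse parts held 1338300 and 888914. No barcode sequence was shared between libraries. Every barcode held both species, with a human share of 32.2% to 92.2% of its UMIs in agrimoniin and 39.6% to 94.1% in combination, so a barcode need not be a single cell. The median mouse part was shallower in combination, at 2977 UMIs against 3773, and the lowest mouse total was 1372 against 2086. Of the genes checked against the label, VIM, a mesenchymal filament gene that PANC-1 cells express, was at 6272 and 5941 CPM (counts per 1000000 human UMIs of the library), and KRT8, KRT18 and EPCAM lay between 18.2 and 53.1 CPM. KRT19, a keratin of duct cells, was at 0.271 CPM in agrimoniin and 0 in combination, where a count of 0 allows up to 0.965 CPM. The human features also read COL1A1, a fibroblast collagen gene, at 6500.1 CPM in agrimoniin and 6458 in combination. Mouse Col1a1 was at 16397 and 20903 CPM of mouse UMIs, and how far mouse transcripts entered human counts was not tested.

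In their human transcripts the combination and agrimoniin tumours were close. The standard deviation of log2 ratios over 7172 genes was 0.18, the lowest among the 6 pairs of libraries, where counting error alone would give 0.12. A log2 ratio here compares CPM of combination with agrimoniin after adding 10 CPM to each side, which understates the difference of low genes. A gene with a mean of at least 20 CPM was counted as higher or lower where its log2 ratio lay at least 0.32 from 0, which is 25% above or 20% below. Of 7174 such human genes, 261 (3.64%) were counted higher in combination and 313 (4.36%) lower. Past 1.5-fold, 20 genes (0.279%) were higher and 14 (0.195%) lower. Intervals given below are exact 95% intervals of a ratio and cover counting error only. The spread between tumours of one treatment was not measured.

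The drug's own target was level between the libraries. EGFR was at 159.9 CPM in agrimoniin and 160.2 in combination, beside 169 in control and 184 in erlotinib. The ratio of combination to agrimoniin was 1.00 (0.887 to 1.13). ERK's feedback phosphatase gene DUSP6 was likewise close, at 334 CPM in agrimoniin and 312 in combination, a ratio of 0.934 (0.858 to 1.02). Without agrimoniin the same gene was at 186 CPM in control and 95.1 in erlotinib, a ratio of 0.513 (0.445 to 0.590). DUSP6 was thus at about the same level with and without erlotinib where agrimoniin was given, and at about 0.51 of the control level where it was not. Both libraries with agrimoniin were above control for this gene. The difference between these differences has no replicate and was not tested. The ERK output list, with 15 measured genes of 19, had a median log2 ratio of -0.05, against -0.01 over all genes, with 0 of 15 counted higher and 2 lower. The lower ones were FOSL1, an AP-1 transcription factor gene, and EMP1, an epithelial membrane protein gene.

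FOSL1 was at 186 CPM in agrimoniin and 135 in combination, beside 165 in control and 157 in erlotinib. EMP1 was at 134 CPM in agrimoniin and 105 in combination, beside 138 in control and 55.9 in erlotinib. FOSL1 was lowest in combination and EMP1 in erlotinib alone. The brakes SPRY2 and SPRY4 leaned the other way, with log2 ratios of 0.24 and 0.18, neither past 0.32.

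The measured EGFR ligand genes leaned lower in the combination. HBEGF, which encodes heparin-binding EGF, was at 31.97 CPM in agrimoniin and 18.7 in combination, beside 26.03 in control and 20.1 in erlotinib, 1.71-fold lower (1.24 to 2.39) in combination than in agrimoniin. EREG, the epiregulin gene, was at 56.1 CPM in agrimoniin and 39.9 in combination, beside 88.8 in control and 38.4 in erlotinib, 1.41-fold lower (1.12 to 1.77). AREG, the amphiregulin gene, was at 14.4 CPM in agrimoniin and 8.36 in combination, beside 16.9 in control and 12.2 in erlotinib. In each of these 3 genes the library with erlotinib was below its partner without it, with and without agrimoniin. NRG1, which encodes the ERBB3 and ERBB4 ligand neuregulin, was at 72.9 CPM in agrimoniin and 54.99 in combination, beside 60.7 in control and 50.9 in erlotinib. Its lower level was not kept throughout. The log2 ratio of -0.35 became 0.04 in barcodes with at least 75% human UMIs and 0.10 in parts with at most 10% mitochondrial UMIs. The whole list of EGFR family and ligands, with 6 measured members of 12, had a median of -0.38, and -0.24 in erlotinib against control. Restricting the sums to barcodes whose UMIs were at least 75% human gave -0.17. Of its 4 members at 20 CPM or more, 3 were counted lower and 0 higher, where 4.36% of all genes were lower.

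**Figure D1:**
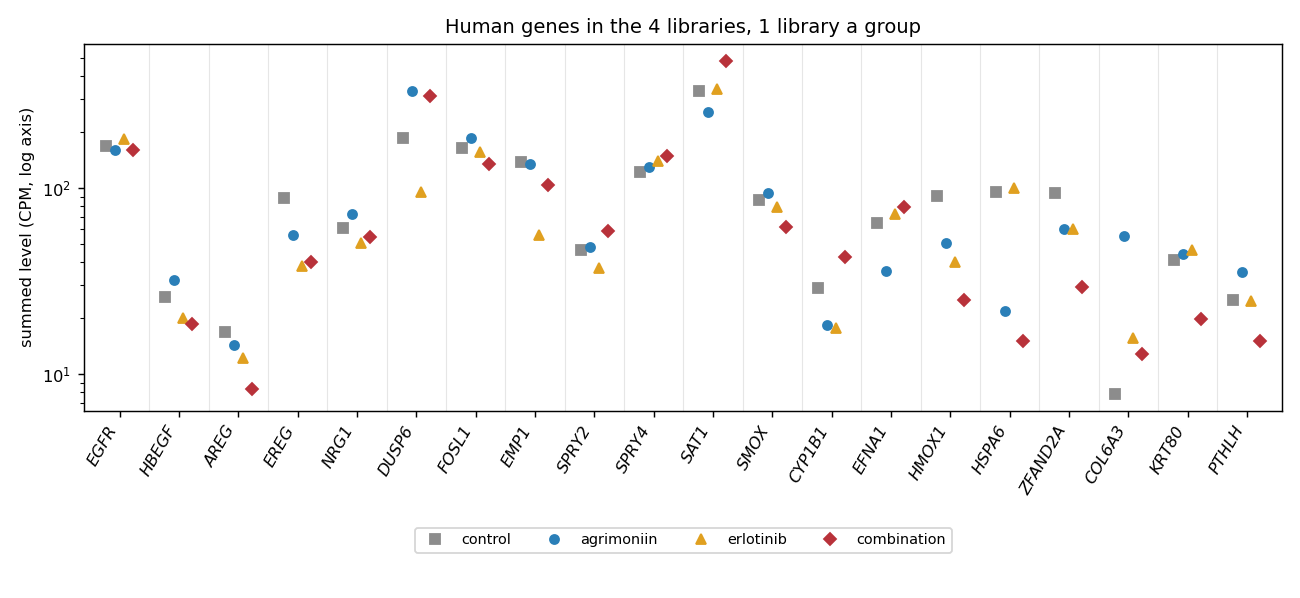
Summed level of 20 human genes in each library, in CPM on a log axis; each symbol is 1 library and there are no replicates. HBEGF, AREG and EREG are lower in each library with erlotinib than in its partner without it. DUSP6 is lowest in erlotinib alone and higher in both libraries with agrimoniin than in control. SAT1 is highest in combination, and COL6A3 is highest in agrimoniin.

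The gene that stood out by level was SAT1. It encodes spermidine/spermine N1-acetyltransferase, the rate-limiting enzyme of polyamine breakdown (GRCh38, chromosome X, 23783173 to 23786226). SAT1 was at 256 CPM in agrimoniin and 484 in combination, beside 331 in control and 341 in erlotinib. Combination was thus highest of the 4 libraries and agrimoniin lowest, and the ratio between them was 1.90 (1.75 to 2.06), from 943 and 1506 UMIs. No barcode gave more than 3.45% of these UMIs in combination or 3.39% in agrimoniin. The log2 ratio of 0.90 was 1.22 in barcodes whose mouse part was fibroblast-like and 0.87 where it was macrophage-like. Mouse Sat1 was at 661 CPM in agrimoniin and 642 in combination. Erlotinib against control gave a SAT1 ratio of 1.03 (0.942 to 1.13).

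The polyamine list as a whole did not follow. It had a median of 0.09, with 1 of 9 members counted higher, SAT1 itself, and 1 lower. The lower member was SMOX, the spermine oxidase gene, at 93.7 CPM in agrimoniin and 62.1 in combination, beside 86.3 in control and 79.5 in erlotinib. SRM, which encodes spermidine synthase, had a log2 ratio of -0.29, and OAZ2, an antizyme gene, 0.26.

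The other human genes at the top were a mixed set. EFNA1 encodes ephrin-A1, a membrane-anchored ligand of EPHA receptors (GRCh38, chromosome 1, 155127460 to 155134857). EFNA1 was at 36.04 CPM in agrimoniin and 79.1 in combination, beside 64.9 in control and 72.3 in erlotinib, 2.195-fold higher (1.77 to 2.73) in combination, with agrimoniin lowest of the 4 libraries. CYP1B1, a cytochrome P450 gene that the aryl hydrocarbon receptor switches on (GRCh38, chromosome 2, 38066973 to 38109902), was at 18.4 CPM in agrimoniin and 42.8 in combination, beside 28.9 in control and 17.7 in erlotinib, 2.32-fold higher (1.72 to 3.16). Combination was highest for it, and the libraries with a single drug were level. AC007952.4, annotated as a long intergenic non-coding RNA, was at 44.98 CPM in agrimoniin and 93.3 in combination. TMEM98, a membrane protein gene, was at 14.1 CPM in agrimoniin and 34.1 in combination, and ZNF90, a zinc finger gene, at 31.7 CPM in agrimoniin and 65.9 in combination, beside 22.7 in control and 61.2 in erlotinib. ZNF90 was the member of this set that was also over 1.5-fold higher in erlotinib than in control. The remaining genes were B4GALNT4, a glycosyltransferase gene, BCL3, which encodes an atypical inhibitor of NF-kB, DLX2, a homeobox gene, SYNE2, the gene of the nuclear envelope protein nesprin-2, and SCD5, a fatty acid desaturase gene. Their log2 ratios were 0.69, 0.69, 0.68, 0.67 and 0.65. For DLX2, BCL3, SYNE2 and B4GALNT4, as for SAT1, EFNA1, AC007952.4 and TMEM98, agrimoniin was lowest of the 4 libraries. SCD5 was level in agrimoniin and control and higher in the other libraries. These genes were picked by their ratio to agrimoniin.

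SERPINA3 came first by ratio but rested on a single barcode. The gene encodes the acute-phase protease inhibitor alpha-1-antichymotrypsin, and was at 13.01 CPM in agrimoniin and 42.8 in combination. In combination 67.7% of its UMIs came from 1 barcode. Without the barcode with most of its UMIs in each library, the log2 ratio went from 1.198 to 0.21. It was 2.85 beside fibroblast-like and -0.52 beside macrophage-like mouse parts.

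**Figure D2:**
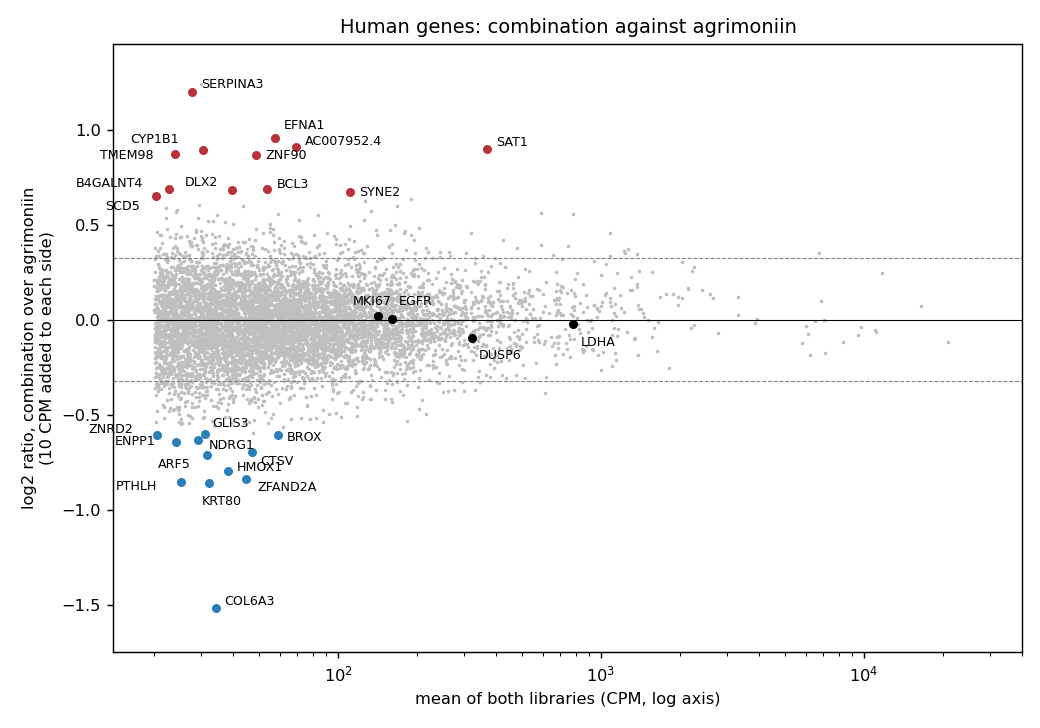
Log2 ratio of combination over agrimoniin (10 CPM added to each side) for 7174 human genes against their mean level in CPM on a log axis. Red and blue points are the 12 highest and 12 lowest genes that were detected in 10% or more of parts in the higher library, black points are EGFR, DUSP6, LDHA and MKI67, grey points all others, and dashed lines mark 0.32 on either side of 0; most genes lie between those lines and SAT1 is the highest above 200 CPM.

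Among the lowest genes in combination, COL6A3 stood apart. It encodes a chain of collagen VI (GRCh38, chromosome 2, 237324003 to 237414375), and was at 55.5 CPM in agrimoniin and 12.9 in combination, beside 7.85 in control and 15.6 in erlotinib. Agrimoniin was the high library, and combination lay between control and erlotinib, 4.32-fold lower (3.07 to 6.22) than agrimoniin. The largest single barcode gave 21.5% of its UMIs in agrimoniin, and without the top barcodes the log2 ratio was -1.42 against -1.52. The mouse gene Col6a3 went the other way, at 445 CPM in agrimoniin and 622 in combination. Beside fibroblast-like mouse parts the human ratio was -0.79 and beside macrophage-like parts -1.87.

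KRT80, a type II keratin gene, was at 44.4 CPM in agrimoniin and 19.9 in combination, beside 40.9 in control and 46.6 in erlotinib, lowest in combination. PTHLH, which encodes parathyroid hormone-related protein, was at 35.5 CPM in agrimoniin and 15.1 in combination, beside 25.2 in control and 24.6 in erlotinib, also lowest in combination. Both were over 2-fold lower, 2.23-fold lower (1.65 to 3.04) and 2.35-fold lower (1.67 to 3.35). CTSV, a lysosomal cysteine protease gene, was at 60.4 CPM in agrimoniin and 33.4 in combination, but 32.7% of its UMIs in agrimoniin came from 1 barcode, and its log2 ratio of -0.70 was -0.33 without the top barcodes. The others were ARF5, a small GTPase gene (-0.71), ENPP1, an ectonucleotidase gene (-0.64), NDRG1, a stress- and hypoxia-responsive gene (-0.63), BROX (-0.61), ZNRD2 (-0.61) and GLIS3, a zinc finger transcription factor gene (-0.60), given as log2 ratios. Like COL6A3 and PTHLH, the genes ARF5, CTSV, ENPP1, BROX, ZNRD2 and GLIS3 were highest in agrimoniin among the 4 libraries. For GLIS3 control was close, at 36.4 CPM against 39.8 in agrimoniin. NDRG1 was similar in control, agrimoniin and erlotinib, at 42.1, 37.9 and 36.02 CPM. The lowest genes too were picked by their ratio to agrimoniin.

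The last pair of lowest genes belongs to stress responses. HMOX1 encodes haem oxygenase 1, which NRF2 induces under oxidative stress (GRCh38, chromosome 22, 35380361 to 35394214). HMOX1 was at 50.9 CPM in agrimoniin and 25.1 in combination, beside 90.9 in control and 40.3 in erlotinib, so each drug alone was below control and the combination below both. In combination it was 2.03-fold lower (1.55 to 2.68) than in agrimoniin. Erlotinib against control gave a ratio of 0.443 (0.358 to 0.547). Human HMOX1 was at 63.3 CPM in agrimoniin and 37.5 in combination where the mouse part of the barcode was macrophage-like, and at 43.2 and 21.1 where it was fibroblast-like, while mouse Hmox1 over all mouse parts was at 232 CPM in agrimoniin and 251 in combination. ZFAND2A, a zinc finger gene induced by heat and arsenite, was at 60.2 CPM in agrimoniin and 29.3 in combination, beside 93.8 in control and 60.1 in erlotinib. It was 2.06-fold lower (1.603 to 2.65) in combination, and the log2 ratio stayed between -1.01 and -0.76 under every setting planned for it.

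The lists around these genes leaned the same way. The NRF2 and haem list had a median of -0.19 over 14 measured members, with 5 of 12 counted lower and 0 higher. Besides HMOX1 the members furthest below 0 were SLC7A11, the cystine transporter gene, under the mean of 20 CPM needed to be counted (24.4 CPM in agrimoniin and 13.8 in combination), ME1, the malic enzyme gene (30.9 CPM in agrimoniin and 21.2 in combination), and TKT, the transketolase gene (113 CPM in agrimoniin and 84.3 in combination). Each of the 3 was also lower in erlotinib than in control. SLC7A11 had a log2 ratio of -0.53 over all barcodes but 0.48 beside fibroblast-like mouse parts, from only 19 UMIs in combination and 11 in agrimoniin. The heat shock list had a median of -0.17, with 13 of 16 measured members below 0. Only ZFAND2A among its 15 members at 20 CPM was counted lower, and none was counted higher. CHORDC1 and HSPH1, both chaperone genes, were at -0.27 and -0.26.

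HSPA6, the strictly inducible HSP70 gene, was low in both libraries with agrimoniin and high in both without. It was at 21.9 CPM in agrimoniin and 15.1 in combination, beside 95.02 in control and 101 in erlotinib, a ratio of combination to agrimoniin of 0.689 (0.470 to 0.999). HSPA6 has a near-identical neighbour, HSPA7, so its counts are uncertain. The promoters of HSPA6 and ZFAND2A are shown because these were the heat shock members furthest apart between the libraries. They run 5′ to 3′ from 250 bases before the start site, from RefSeq (GRCh38.p14), HSPA6 at chr1:161524290-161524589 on the plus strand and ZFAND2A at chr7:1160147-1160446 on the minus strand. Capitals mark the heat shock element searched, GAANNTTC, which reads the same on both strands.
HSPA6: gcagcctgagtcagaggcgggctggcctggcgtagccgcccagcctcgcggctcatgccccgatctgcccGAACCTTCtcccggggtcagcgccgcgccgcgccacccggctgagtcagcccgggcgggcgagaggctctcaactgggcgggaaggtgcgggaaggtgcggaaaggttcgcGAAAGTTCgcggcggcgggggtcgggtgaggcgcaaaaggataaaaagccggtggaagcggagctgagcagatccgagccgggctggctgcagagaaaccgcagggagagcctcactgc
ZFAND2A: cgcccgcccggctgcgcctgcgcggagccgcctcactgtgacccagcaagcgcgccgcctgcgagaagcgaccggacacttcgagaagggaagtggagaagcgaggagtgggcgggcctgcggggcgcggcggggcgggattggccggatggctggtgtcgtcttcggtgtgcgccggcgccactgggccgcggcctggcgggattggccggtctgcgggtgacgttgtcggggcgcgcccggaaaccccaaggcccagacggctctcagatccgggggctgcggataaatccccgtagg
HSPA6 held 2 matches, 180 and 69 bases before the start, and ZFAND2A held 0. Of 34943 promoters of this length, 6.79% held the element, and 8 of the 15 heat shock genes with an entry did. The NRF2 element searched, TGANNNNGC on both strands, was in 41.8% of all promoters and in 8 of 13 genes of the NRF2 and haem list. The aryl hydrocarbon receptor core GCGTG, on both strands, was in 36.5% of all promoters and in 4 of 6 genes of the AHR list, and HSPA6 and ZFAND2A each also held TGANNNNGC. A match of letters is a description of the sequence only.

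The AHR pathway list had a median of 0.24, from only 4 measured members of 8. CYP1B1 and the receptor gene AHR were counted higher, AHR at 215 CPM in agrimoniin and 273 in combination, beside 274 in control and 202 in erlotinib. ARNT, the gene of its dimerisation partner, was lower, at 35.8 CPM in agrimoniin and 24.8 in combination, and TIPARP, a target gene, had a log2 ratio of 0.14. In erlotinib against control the list had a median of -0.37. CYP1B1 had a log2 ratio of -0.49 and AHR of -0.42 in that pair, so both lay on opposite sides of 0 in the 2 pairs.

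Lactic acid is named in the title of the series, and few genes of lactate metabolism stood apart in the tumour cells. LDHA, the lactate dehydrogenase A gene, was at 791 CPM in agrimoniin and 778 in combination, beside 726 in control and 878 in erlotinib, a ratio of 0.983 (0.931 to 1.04). The lactate handling list had a median of -0.04, with 0 of 9 members counted higher and 0 lower. The members furthest from 0 were the transporter genes SLC16A3 (-0.23) and SLC16A1 (-0.22), with EMB (-0.15) and BSG (-0.13), which encode their partner proteins. The glycolysis list had a median of -0.09, with 0 of 14 members counted higher and 1 lower. The lower one was SLC2A1, the glucose transporter gene, at 117 CPM in agrimoniin and 80.1 in combination, beside 95.02 in control and 76.8 in erlotinib. ENO1, the enolase gene, leaned up at 1194 CPM in agrimoniin and 1398 in combination, and GPI leaned down at 428 CPM in agrimoniin and 357 in combination. PFKFB3 had a log2 ratio of 0.30.

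The human hypoxia response list was split, with a median of 0.04 and 2 of 14 members counted higher and 2 lower. NDRG1 and ANGPTL4 were lower, ANGPTL4 at 56.4 CPM in agrimoniin and 35.7 in combination. LOX, a collagen cross-linking enzyme gene, and DDIT4, which encodes an inhibitor of mTORC1, were higher. LOX was at 52.02 CPM in agrimoniin and 72.7 in combination, beside 38.01 in control and 34.7 in erlotinib, highest in combination. DDIT4 was at 93.7 CPM in agrimoniin and 124 in combination, and its log2 ratio was -0.07 beside fibroblast-like mouse parts. Mitochondrially encoded genes had a median of -0.08, with MT-ND6 at 0.39, MT-ND4L at -0.26, MT-CO2 at -0.18 and MT-CYB at -0.17. MT-ND4L overlaps its neighbour MT-ND4, so its counts are uncertain, and MT-ND6 was at only 23.6 CPM in agrimoniin and 34.1 in combination. Nuclear oxidative phosphorylation genes had a median of -0.01, with the subunit genes NDUFB9 (0.38) and SDHA (0.30) higher and CYC1 (-0.36) and UQCRC1 (-0.27) lower on the log2 scale.

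Proliferation genes were level or slightly lower. MKI67 was at 141 CPM in agrimoniin and 143 in combination, beside 136 in control and 160.5 in erlotinib, a ratio of 1.01 (0.891 to 1.15). The S phase list had a median of -0.05 with 2 of 14 members counted lower and 0 higher, and the G2/M list had -0.06 with 3 of 24 lower and 1 higher. In erlotinib against control these medians were 0.31 and 0.15. The members furthest from 0 were CDC20, the mitotic exit activator gene, at 53.9 CPM in agrimoniin and 33.8 in combination, BUB1 (-0.40), CCNB1 (-0.36) and, on the higher side, CCNB2 (0.39), all 4 in the G2/M list. In the S phase list they were the helicase subunit gene MCM7 (-0.40), RFC2 (-0.35), UNG (-0.35) and CLSPN (-0.32). By the host part of the barcode MKI67 went in opposite directions, with a log2 ratio of 0.63 beside fibroblast-like and -0.73 beside macrophage-like mouse parts.

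Lists of death and damage responses held few members that were counted. The BCL2 family and death receptor list had a median of -0.06, with 0 of 6 higher and 0 lower. Its furthest members were the death receptor gene TNFRSF10A (-0.33) and the pro-apoptotic genes BAD (0.25), BCL2L11 (0.24) and BAX (0.24). BCL2L11 encodes BIM, a pro-apoptotic protein that ERK marks for degradation, and was at 93.7 CPM in agrimoniin and 113 in combination, beside 111 in control and 113 in erlotinib. The p53 target list had a median of 0.09 and 0 of 6 members counted higher and 0 lower, with ZMAT3 (0.23), CDKN1A (0.23), PLK3 (0.16) and SESN1 (0.15) at its upper end. The integrated stress and unfolded protein list was at 0.03 and held 0 of 13 members counted higher and 1 lower, with PHGDH, the first enzyme gene of serine synthesis, lower at 28.2 CPM in agrimoniin and 17.4 in combination. CALR, DNAJB9 and SDF2L1 of that list each had a log2 ratio of 0.18. Immediate early genes were at 0.03 and held 2 of 15 members counted higher and 0 lower, with NR4A1 (508 CPM in agrimoniin and 670.2 in combination) and ZFP36 (5913 CPM in agrimoniin and 7541 in combination) counted higher, JUND at 0.28 and IER2 at -0.19.

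Mesenchymal genes leaned lower in the combination. The list had a median of -0.18, with 14 of 17 measured members below 0 and 5 of 16 counted lower, against 0 higher. Besides COL6A3 these included CALD1, THBS1 and SPARC. CALD1, an actin-binding caldesmon gene, was at 106 CPM in agrimoniin and 69.5 in combination, beside 80.98 in control and 108 in erlotinib. THBS1, the thrombospondin 1 gene, was at 122 CPM in agrimoniin and 82.6 in combination, beside 116 in control and 67.8 in erlotinib. SPARC, a matrix protein gene, was at 46.9 CPM in agrimoniin and 29.9 in combination, beside 44.2 in control and 21.7 in erlotinib. THBS1 and SPARC were lower in both libraries with erlotinib. By host part they went in opposite directions, with log2 ratios of 0.77 and 0.63 (THBS1 and SPARC) beside fibroblast-like parts and -0.58 and -0.94 beside macrophage-like parts. CALD1 was at -0.59 and -0.38. Mouse Thbs1 was at 1176 CPM in agrimoniin and 1761 in combination and mouse Cald1 at 604 CPM in agrimoniin and 891 in combination, both higher where the human gene was lower. The part that mouse transcripts had in these human values was not tested. The EMT transcription factor list had 4 measured members and a median of -0.16, with SNAI2 at 42.00 CPM in agrimoniin and 28.9 in combination, PRRX1 at -0.33 and SNAI1 at 0.06 on the log2 scale, and ZEB1 level. The median of that list was 0.020 when barcodes had to be at least 75% human, and 0.11 when parts had to have at most 10% mitochondrial UMIs.

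On the epithelial side the desmosomal genes DSP and JUP were higher. DSP, the desmoplakin gene, was at 168 CPM in agrimoniin and 238 in combination, beside 179 in control and 213 in erlotinib. JUP, the plakoglobin gene, was at 97.5 CPM in agrimoniin and 133 in combination, beside 85.1 in control and 123 in erlotinib. Both were highest in combination and next highest in erlotinib, and both were above 0 beside fibroblast-like and macrophage-like mouse parts. The epithelial list had a median of 0.11, with 2 of 6 members counted higher, these 2, and 0 lower, and EPCAM (0.21) and CD24 (0.19) next. The tight junction genes TJP1 (-0.11), OCLN (-0.08) and CLDN7 (-0.06) lay below 0, and 3 of 8 measured members did. That median was -0.04 in barcodes with at least 75% human UMIs and -0.01 in parts with at most 10% mitochondrial UMIs. Keratins had a median of -0.03 and 1 of 4 members counted higher and 1 lower, with KRT80 lower, KRT8 higher at 36.04 CPM in agrimoniin and 49.2 in combination, KRT10 at -0.21 and KRT18 at 0.14.

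Basement membrane genes had a median of -0.22, with 0 of 6 members counted higher and 2 lower, and 3 of 10 measured members above 0. LAMB3, which encodes a chain of the laminin of epithelial attachment, was at 24.9 CPM in agrimoniin and 13.8 in combination, beside 19.4 in control and 19.9 in erlotinib, lowest in combination, and under the mean of 20 CPM needed to be counted. AGRN, a heparan sulfate proteoglycan gene, was counted lower with a log2 ratio of -0.35, and HSPG2, another, was at -0.32. The laminin chain genes LAMA4 and LAMA5 lay above 0, at 0.30 and 0.21. YAP and TEAD targets had a median of -0.13, with 0 of 9 members counted higher and 1 lower. CCN2, a secreted matrix-associated protein gene, led them at 285 CPM in agrimoniin and 216 in combination, beside 152 in control and 151 in erlotinib. It was highest in agrimoniin, and was followed by AXL (-0.25), NT5E (-0.23) and, higher, CRIM1 (0.25). CCN2 too was reversed beside fibroblast-like parts, at 0.27.

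TGF-beta and BMP genes leaned up, with a median of 0.12 and 3 of 12 members counted higher, against 0 lower. ID3 and ID1, inhibitors of differentiation that BMP signalling induces, were both counted higher. ID3 was at 131 CPM in agrimoniin and 204 in combination, beside 149 in control and 141 in erlotinib. ID1 was at 416 CPM in agrimoniin and 543 in combination, beside 544 in control and 395 in erlotinib. BMPR1B, a BMP receptor gene, was at 27.4 CPM in agrimoniin and 40.5 in combination, beside 35.9 in control and 12.98 in erlotinib, lowest in erlotinib alone. SMAD6, an inhibitory SMAD gene, had a log2 ratio of 0.25. The median of this list was -0.14 in erlotinib against control. In the list of ephrins and receptors (median 0.03, 1 of 6 members counted higher and 1 lower), EFNA1 was higher and EPHB2 lower, at 33.9 CPM in agrimoniin and 20.9 in combination, with EFNA5 at 0.21 and EPHA7 at 0.16.

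Immune and inflammatory genes of the tumour cells were split. SOCS3, which encodes a brake on cytokine receptors, was higher, with agrimoniin lowest of the 4 libraries. It was at 147 CPM in agrimoniin and 233 in combination, beside 263 in control and 258 in erlotinib. TNFAIP3 and CCL2 were lower, at 44.98 CPM in agrimoniin and 32.8 in combination for TNFAIP3 and 55.8 CPM in agrimoniin and 41.2 in combination for CCL2, and RELB had a log2 ratio of 0.32. The NF-kB and cytokine list around them had a median of -0.09, with 1 of 11 members counted higher and 2 lower. HLA-B and HLA-E, class I antigen presentation genes, were higher and both highest in combination. HLA-B was at 165 CPM in agrimoniin and 224 in combination, beside 171 in control and 185 in erlotinib. HLA-E was at 134 CPM in agrimoniin and 178 in combination, beside 162 in control and 145 in erlotinib. HLA genes are close relatives of each other, so reads can be shared between them. B2M, their common light chain gene, had a log2 ratio of -0.14, and the list a median of 0.01, with 2 of 8 members counted higher and 0 lower. The interferon response list was at 0.11 over 7 members and held 0 of 4 members counted higher and 0 lower, with IFI6 at 0.37, IFITM3 at 0.14 and IRF1 at 0.12. Cholesterol synthesis genes had a median of -0.12 and 0 of 14 members counted higher and 1 lower, with FDFT1, the squalene synthase gene, at 49.9 CPM in agrimoniin and 36.7 in combination, MVK at -0.24 and FDPS at -0.22. The host-cell markers read in human genes had a median of 0.02 over 2 members, COL3A1 at 0.05 and COL1A1 at -0.01. By host part COL3A1 went in opposite directions, at 0.96 beside fibroblast-like and -0.60 beside macrophage-like mouse parts. COL1A1 was at 0.06 and -0.22.

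**Figure D3:**
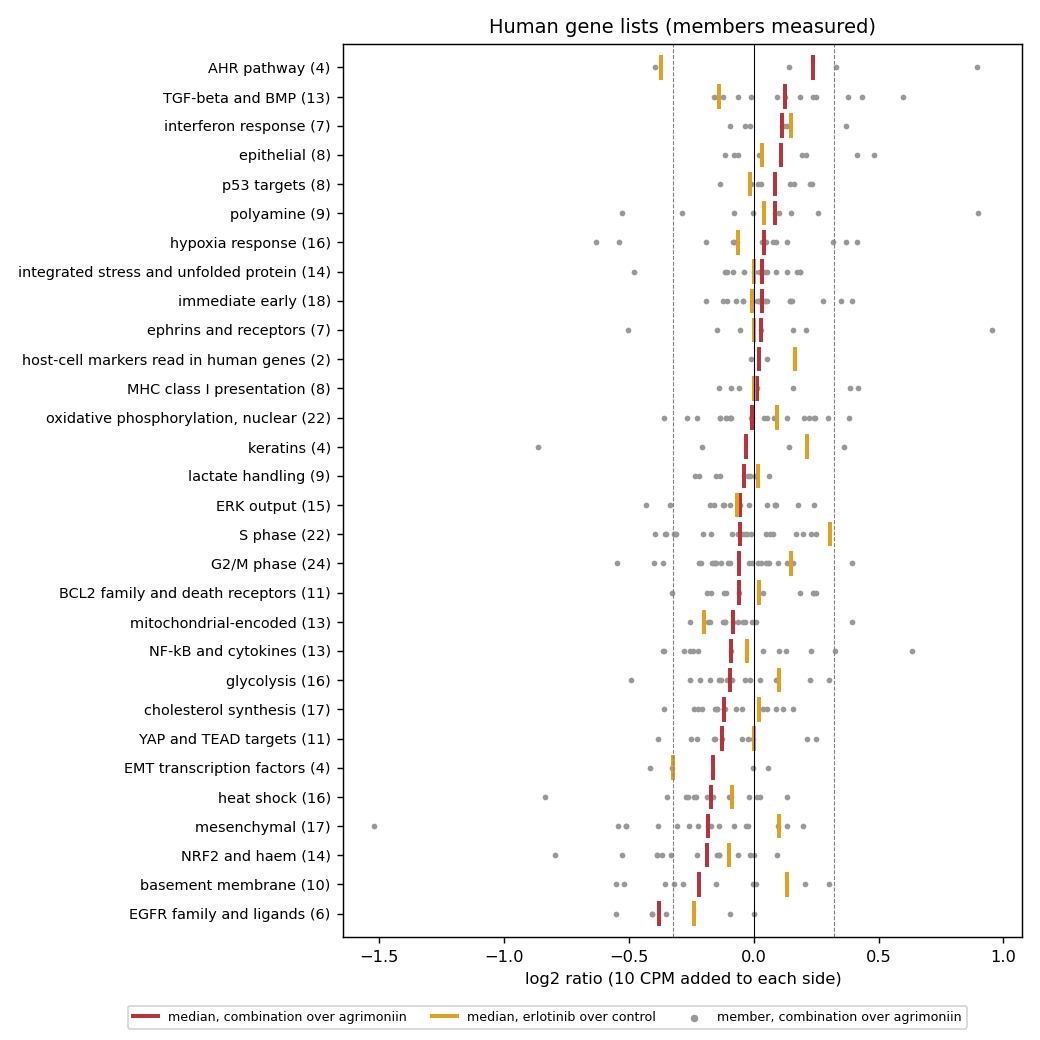
Human gene lists ordered by their median log2 ratio of combination over agrimoniin (red bar), with each measured member as a grey point, the number measured in parentheses and the median of erlotinib over control as a yellow bar; dashed lines mark 0.32 on either side of 0. EGFR family and ligands have the lowest red bar and the AHR pathway the highest. The bars of S phase, and of several other lists, lie on opposite sides of 0.

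By chromosome the human log2 ratios were flat. The medians ran from -0.05 on chromosome 15 (248 genes) to 0.02 on chromosome 22 (121 genes), with -0.08 for the 13 mitochondrial genes. Across 4705 genes with a mouse gene of the same symbol, the human and mouse log2 ratios had a Pearson correlation of 0.01, given as a description. Of the 118 of these past 0.32 in both species, 66 had the same direction.

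Ratios were spread more widely in the mouse transcripts, which were also shallower. Of 6679 mouse genes with a mean of at least 20 CPM of mouse UMIs, 866 (13%) were counted higher in combination and 1036 (15.5%) lower. Past 1.5-fold, 219 (3.28%) were higher and 273 (4.09%) lower. The standard deviation of the log2 ratios was 0.37, where counting error alone would give 0.22. In sums over all mouse parts, fewer cells of a type and less of its RNA per cell cannot be told apart. Parts were therefore also read by class, from clusters named after marker genes. Macrophage-like parts made up 137 of 297 (46.1%, 40.4 to 52.0) in agrimoniin and 98 of 249 (39.4%, 33.2 to 45.7) in combination. Fibroblast-like parts made up 97 (32.7%, 27.4 to 38.3) and 93 (37.3%, 31.3 to 43.7), and monocyte-like parts 43 (14.5%, 10.7 to 19.0) and 46 (18.5%, 13.9 to 23.9). The intervals (Clopper-Pearson, counting error only) overlap for each class. Monocyte markers went the other way from the monocyte-like share. They summed to 748 CPM in agrimoniin and 651 in combination, with 2 of 7 higher and 5 lower. Endothelial-like parts numbered 9 and 3, pericyte- or smooth muscle-like parts 8 and 8, and natural killer-like parts 3 and 1.

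For some rare host cells a few barcodes held most of the marker transcripts. The 6 mast cell markers summed to 670 CPM in agrimoniin against 4.50 in combination, with 56.5% of these UMIs in agrimoniin from 1 barcode. Adipocyte markers summed to 104 CPM against 0, with 95.7% from 1 barcode. Endothelial markers summed to 158 against 57.4 CPM, with all 4 measured ones lower, and natural killer markers to 123 against 33.7. Cd34 and Eng, genes of vessel cells among others, and Lpl, the lipoprotein lipase gene of adipocytes and macrophages, are among the lowest genes below, and the part these cells had in them was not tested. T cell markers summed to 8.97 and 12.4 CPM, with Cd3d, Cd3g and Cd8a at 0 in both libraries. Neutrophil markers summed to 36.6 and 55.1 CPM, dendritic ones to 23.2 and 14.6, and B cell, Schwann cell, keratinocyte, skeletal muscle and erythroid ones to at most 22.5 in either library.

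Among the host genes with the highest ratios were contractile, matrix and hypoxia response genes. Grem1, which encodes the secreted BMP antagonist gremlin 1, was at 150.2 CPM in agrimoniin and 405 in combination, beside 463 in control and 108 in erlotinib. Tpm1, the tropomyosin 1 gene, was at 323 CPM in agrimoniin and 808 in combination, beside 803 in control and 373 in erlotinib. In both, combination and control were high and agrimoniin and erlotinib low. P4ha2, a collagen prolyl hydroxylase gene, was at 48.6 CPM in agrimoniin and 132 in combination, beside 99.1 in control and 70.8 in erlotinib, and Bnip3, a hypoxia-induced mitophagy gene, was at 116 CPM in agrimoniin and 274 in combination, beside 276 in control and 116 in erlotinib. Angptl2, the gene of a secreted angiopoietin-like protein, had the same split, at 79.95 CPM in agrimoniin and 179 in combination, beside 163 in control and 49.9 in erlotinib. Tnn, the tenascin-N gene, was at 8.97 CPM in agrimoniin and 95.6 in combination, beside 28.7 in control and 26.7 in erlotinib, 10.7-fold higher (5.80 to 21.4), with agrimoniin alone low. Acod1, which encodes the itaconate-forming enzyme of activated macrophages, was at 29.9 CPM in agrimoniin and 116 in combination, beside 46.1 in control and 106 in erlotinib, 3.88-fold higher (2.67 to 5.73). Cryab, a small heat shock protein gene, was at 29.9 CPM in agrimoniin and 102 in combination, beside 71.3 in control and 25.3 in erlotinib, but 40.7% of its UMIs in combination came from 1 barcode, and its log2 ratio was 0.94 without the top barcodes against 1.49.

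The lowest host genes were a mixed set. C3, the central complement component gene, was at 146 CPM in agrimoniin and 40.5 in combination, beside 71.3 in control and 103 in erlotinib, 3.62-fold lower (2.52 to 5.31) in combination. Ccl5, a chemokine gene, was at 114 CPM in agrimoniin and 34.9 in combination, beside 41.7 in control and 75.9 in erlotinib. Ccr2, the receptor gene of inflammatory monocytes, was at 108 CPM in agrimoniin and 38.2 in combination, beside 76.5 in control and 157 in erlotinib. Cxcl9, an interferon-gamma-induced chemokine gene, was at 140.5 CPM in agrimoniin and 51.7 in combination, beside 69.5 in control and 219.7 in erlotinib. For Ccr2 and Cxcl9 combination was lowest of the 4 libraries and erlotinib highest. Slc4a4, a bicarbonate cotransporter gene, was at 52.3 CPM in agrimoniin and 10.1 in combination, beside 13.04 in control and 30.4 in erlotinib, from only 9 UMIs in combination, as for Eng, at 37.4 CPM in agrimoniin and 10.1 in combination. Lpl was at 158 CPM in agrimoniin and 54.00 in combination, beside 148 in control and 78.1 in erlotinib, with 36.02% of its UMIs in agrimoniin and 41.7% in combination from 1 barcode each. Cd34 was at 114 CPM in agrimoniin and 40.5 in combination, beside 35.6 in control and 52.8 in erlotinib.

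The myofibroblast list, contractile and matrix genes of activated fibroblasts, was the highest of the mouse lists. Its median was 0.68, against -0.02 over all mouse genes, with 8 of 12 members counted higher and 1 lower. Summed over members it was at 3434 CPM in agrimoniin and 5503 in combination, beside 7225 in control and 3663 in erlotinib. Acta2, the smooth muscle actin gene, was at 326 CPM in agrimoniin and 655 in combination, beside 708 in control and 284 in erlotinib. Tpm2, a tropomyosin gene, was at 105 CPM in agrimoniin and 214 in combination, beside 255 in control and 99.7 in erlotinib. Both were high in control and combination. In erlotinib against control the list had a median of -1.23, so erlotinib libraries were on opposite sides of their partners with and without agrimoniin. Within fibroblast-like parts the median was 0.67, with 9 of 13 members counted higher, where 21.0% of all genes in these parts were higher and 22.7% lower. Fibroblast-like parts came mostly from a Prg4-led cluster in agrimoniin (54 of 97) and a Grem1-led cluster in combination (56 of 93), so values within the class mix these. Within the Grem1-led cluster alone the median was 0.36 and within the Prg4-led cluster 0.55. In erlotinib against control these medians were -0.58 and 0.09. The Prg4-led cluster held 15 of 87 fibroblast-like parts in control and 36 of 89 in erlotinib. How much of the median of -1.23 comes with these shares was not tested.

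Collagen genes over all mouse parts had a median of 0.25 with 7 of 16 members counted higher and 3 lower, and of -0.73 in erlotinib against control. The members included Col12a1 (427 CPM in agrimoniin and 763 in combination) and Col6a3 (0.47 as a log2 ratio) higher. Col15a1, the gene of a basement membrane collagen, was lower at 592 CPM in agrimoniin and 269 in combination, beside 725 in control and 596 in erlotinib, and Col14a1 at 244 CPM in agrimoniin and 135 in combination. Within fibroblast-like parts the collagen median was 0.08, with 1 of 16 members higher and 4 lower. In erlotinib against control it was 0.02 in these parts, so the opposite signs over all mouse parts were not kept there. Col1a1, the main fibrillar collagen gene, was at 36390.2 CPM in agrimoniin and 42144 in combination there. Col15a1 was at 1215 CPM in agrimoniin and 328 in combination in these parts. The list of matrix and its enzymes had a median of -0.07 (5 of 19 members counted higher and 5 lower), with Eln, the elastin gene (0.82), the collagenase gene Mmp13 (0.82), Postn, the periostin gene (0.75), and Loxl2 (0.65) as its members furthest from 0.

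Complement genes were low in combination. Their median was -0.68 (-0.37 with barcodes weighted equally), with 7 of 10 members counted lower and 0 higher, and it was 0.58 in erlotinib against control. C4b was at 224 CPM in agrimoniin and 91.1 in combination, beside 85.2 in control and 172 in erlotinib. Serping1, the C1 inhibitor gene, was at 636 CPM in agrimoniin and 376 in combination, beside 456 in control and 427 in erlotinib. C1ra, the gene of a C1 protease, was at 119.6 CPM in agrimoniin and 68.6 in combination, beside 57.4 in control and 80.9 in erlotinib. All 3 were highest in agrimoniin. In fibroblast-like parts 9 of 10 members were lower, with a median of -1.17, and it was -0.99 and -1.11 within the Grem1-led and Prg4-led clusters. C3 was at 257 CPM in agrimoniin and 63.7 in combination there and C4b at 405 CPM in agrimoniin and 129.9 in combination. In macrophage-like parts the median was -0.23, and the C1q genes, which macrophages make, were near level, C1qc at 5721 CPM in agrimoniin and 6675 in combination.

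The inflammatory fibroblast list had a median of -0.22 over all mouse parts with 1 of 15 members counted higher and 7 lower, 0.65 in the other pair, and -0.51 within fibroblast-like parts. Over all mouse parts it was -0.070 at a common minimum of 2086 mouse UMIs and -0.53 with each gene read without its top barcode in each library. Pi16 and Dpt, genes of adventitial fibroblasts, were lower. Pi16 was at 92.7 CPM in agrimoniin and 37.1 in combination, beside 27.8 in control and 71.6 in erlotinib. Dpt was at 119.6 CPM in agrimoniin and 54.00 in combination, beside 26.9 in control and 52.8 in erlotinib. Cxcl14 was at 545 CPM in agrimoniin and 271 in combination. Within the Prg4-led cluster the list median was 0.09 and within the Grem1-led cluster -0.83. Within fibroblast-like parts the genes furthest apart on the higher side were Pgf, Tnn, Mmp10, Fabp5 and Rasl11a. Pgf, the placental growth factor gene, was at 19.1 CPM in agrimoniin and 203 in combination, beside 82.3 in control and 76.3 in erlotinib. Fabp5, a fatty acid binding protein gene, was at 95.6 CPM in agrimoniin and 389.6 in combination, beside 200.2 in control and 65.7 in erlotinib, also highest in combination. Tnn was at 20.9 CPM in agrimoniin and 201 in combination, the stromelysin gene Mmp10 at 41.7 CPM in agrimoniin and 199 in combination, and Rasl11a at 24.3 CPM in agrimoniin and 115 in combination. In agrimoniin 79.2% of the Mmp10 UMIs came from 1 barcode, and in combination 44.6% of those of Pgf. On the lower side Scd1, a fatty acid desaturase gene, was at 203 CPM in agrimoniin and 7.35 in combination, with 83.8% of its agrimoniin UMIs from 1 barcode. The other lowest genes there were H2-Eb1, Cd74, H2-Aa and Ctss, genes of class II antigen presentation, at 202 CPM in agrimoniin and 12.3 in combination for H2-Eb1. In agrimoniin 60.3%, 67.1%, 63.6% and 69.4% of their UMIs came from 1 barcode each. The part that other cells in these barcodes had in the values was not tested.

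The hypoxia response list was higher in the host, and most of all in fibroblast-like parts. Over all mouse parts its 16 measured members were all above 0, with a median of 0.47 and 10 of 14 counted higher, against 0 lower. Besides P4ha2 and Bnip3 the furthest members were Egln3 and Ero1l. Egln3, the gene of an oxygen-sensing prolyl hydroxylase, was at 33.6 CPM in agrimoniin and 81.00 in combination, beside 57.4 in control and 18.8 in erlotinib. Ero1l, an oxidative folding enzyme gene, was at 150.2 CPM in agrimoniin and 310.5 in combination, beside 261 in control and 103 in erlotinib. In fibroblast-like parts the median was 0.93, with 15 of 16 members counted higher. In these parts Ero1l was at 146 CPM in agrimoniin and 509.7 in combination, beside 339 in control and 108 in erlotinib. Ndrg1 was at 603 CPM in agrimoniin and 1245 in combination, beside 428 in control and 339 in erlotinib. Vegfa, the vascular growth factor gene, was at 772 CPM in agrimoniin and 1184 in combination, beside 786 in control and 768 in erlotinib. Combination was highest of the 4 libraries for each of them.

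The hypoxia median was 1.15 within the Grem1-led cluster and 0.28 within the Prg4-led cluster. At the finer Leiden resolution of 1.0 a fibroblast-like cluster whose leading genes include Grem1, Pgf, Mmp10, Ero1l and P4ha2 held 11 parts in agrimoniin and 23 in combination. How much of the hypoxia value comes with that cluster's share was not tested. In macrophage-like parts it was 0.07, with 3 of 10 members higher, where 20.5% of all genes in these parts were higher and 23% lower, and in the thin monocyte-like parts -0.10. The human hypoxia list of the same barcodes had the median of 0.04 given above. Mouse glycolysis genes had a median of 0.16 over all parts (3 of 12 members counted higher and 0 lower), 0.42 in fibroblast-like and 0.02 in macrophage-like parts. It was 0.43 in the Grem1-led and 0.03 in the Prg4-led cluster. In fibroblast-like parts Slc2a1 was at 106 CPM in agrimoniin and 336 in combination, beside 174 in control and 92.3 in erlotinib. Over all mouse parts Pkm had a log2 ratio of 0.54, Pgam1 0.53 and Pgk1 0.30. The mouse lactate handling list had a median of 0.10 (2 of 7 members counted higher and 0 lower), with Pdk1 (0.62), Slc16a3 (0.47) and Ldha (0.39) above 0 and Pdha1 (-0.27) below.

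**Figure D4:**
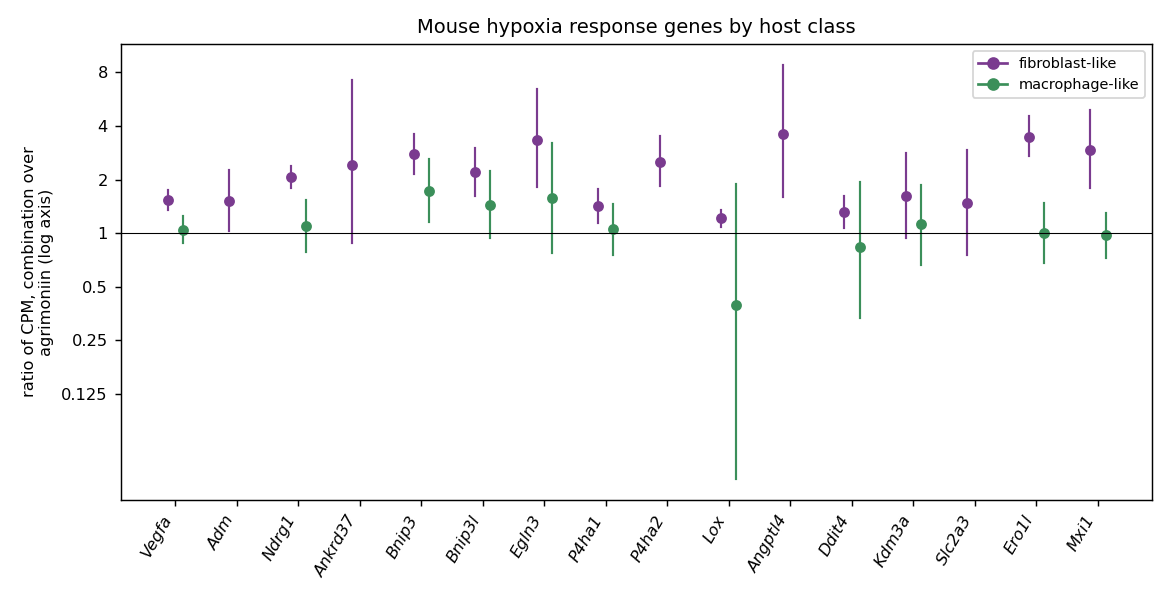
Ratio of CPM in combination over agrimoniin (log axis) for 16 mouse hypoxia response genes in fibroblast-like and macrophage-like mouse parts, with exact 95% intervals that cover counting error only; genes under 10 CPM in a class are not drawn. All fibroblast-like points lie above 1, and most macrophage-like points lie nearer to 1.

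Macrophage genes of the alternatively activated kind were higher in the combination. Over all mouse parts the list had a median of 0.42 with 6 of 11 members counted higher and 0 lower. Within macrophage-like parts the median was 0.75, with 11 of 12 higher, where 20.5% of all genes in these parts were higher. The largest macrophage-like cluster was the Mmp12-led cluster in agrimoniin (53 of 137 parts) and the Ccl3-led cluster in combination (36 of 98). In these parts Lyve1, a hyaluronan receptor gene of tissue-resident macrophages, was at 14.6 CPM in agrimoniin and 136 in combination, beside 21.2 in control and 69.3 in erlotinib, from 8 UMIs in agrimoniin and 42 in combination. Arg1, the arginase 1 gene, was at 14.6 CPM in agrimoniin and 136 in combination, beside 33.2 in control and 89.9 in erlotinib. Folr2, a folate receptor gene, was at 198 CPM in agrimoniin and 446 in combination, beside 202 in control and 302 in erlotinib. All 3 were highest in combination and next highest in erlotinib. Il10, the interleukin 10 gene, was at 42.1 CPM in agrimoniin and 107 in combination, beside 27.2 in control and 16.9 in erlotinib. The list was higher with erlotinib in the other pair as well, with a median of 0.68 in macrophage-like parts. A macrophage-like cluster had the list members Cbr2, F13a1, Lyve1, Folr2 and Clec10a among its leading genes. It held 29 of 137 parts in agrimoniin and 24 of 98 in combination, beside 9 of 71 in control and 32 of 136 in erlotinib. How much of either median comes with that cluster's share was not tested.

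Pro-inflammatory macrophage genes were split by gene. The list had a median of 0.25 over all parts with 5 of 13 members counted higher and 2 lower, and 0.38 in macrophage-like parts, with 7 of 12 higher there. Over all parts Tnf was higher, at 161 CPM in agrimoniin and 313 in combination, beside 83.4 in control and 108 in erlotinib. Nos2, the inducible nitric oxide synthase gene, was at 2.24 CPM in agrimoniin, which is the floor of 3 counts, and 20.2 in combination. Its mean was under the 20 CPM needed to be counted. Ccl5 and Cxcl9 were lower as given above. Chemokine genes had a median of 0.01 over all parts with 3 of 16 members counted higher and 5 lower, but of 0.62 in macrophage-like and -0.73 in fibroblast-like parts. The fibroblast-like value was -1.02 in the Grem1-led and -0.07 in the Prg4-led cluster. Over all parts Cxcl2, a neutrophil-attracting chemokine gene, was at 483 CPM in agrimoniin and 1015 in combination, beside 465 in control and 483 in erlotinib, and was high in combination alone. Cxcl12, a stromal chemokine gene, was at 54.5 CPM in agrimoniin and 23.6 in combination, beside 63.5 in control and 87.5 in erlotinib. The lipid-associated macrophage list was lower over all parts, with a median of -0.31 and 1 of 10 members counted higher and 4 lower. Its furthest members besides Lpl were Gpnmb (26.9 CPM in agrimoniin and 5.62 in combination), Cd36, a fatty acid receptor gene (60.5 CPM in agrimoniin and 24.7 in combination), and Spp1, the osteopontin gene (516 CPM in agrimoniin and 282 in combination, beside 1265 in control and 1096 in erlotinib). Within macrophage-like parts the median of this list was -0.16, which lay within its counting error of 0.22. There 1 of 10 members was counted higher and 3 lower.

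Class II antigen presentation genes were lower in the combination across the list. All 9 members were below 0 over all mouse parts, with a median of -0.48 and 8 of 9 counted lower. Cd74, the invariant chain gene, was at 2018 CPM in agrimoniin and 1268 in combination, beside 1717 in control and 2529 in erlotinib. H2-Aa was at 1889 CPM in agrimoniin and 1269 in combination, beside 1751 in control and 2545 in erlotinib. The loading factor genes H2-DMb1 and H2-DMb2 had log2 ratios of -0.61 and -0.58. Combination was lowest of the 4 libraries for Cd74 and H2-Aa, and erlotinib highest. Within macrophage-like parts the median was -0.27, with 4 of 9 lower, and in fibroblast-like parts -2.54, or -1.41 when each gene was read without its top barcode in each library. Class I genes had a median of -0.16 (0 of 10 members counted higher and 2 lower), with Tap1 at -0.48, Psmb8 at -0.40, Psmb9 at 0.25 and B2m at -0.23. The interferon response list had 0.19 (5 of 13 members counted higher and 3 lower), with Ifit1 (109.8 CPM in agrimoniin and 236 in combination) and Isg20 (0.57) higher and Irf7 (-0.52) lower.

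The macrophage-like genes furthest apart were Lyve1, Acod1 (23.8 CPM in agrimoniin and 119.5 in combination), AI413582 (3.66 CPM in agrimoniin and 38.8 in combination), Ifit1 (56.7 CPM in agrimoniin and 213 in combination) and Col1a1 (335 CPM in agrimoniin and 1102 in combination) on the higher side. In combination 82.4% of the Col1a1 UMIs in these parts came from 1 barcode, and 46.97% of those of Ifit1. On the lower side were Rptor, Lpl, Mrpl15, Rrs1 and C3, on 1, 4, 1, 3 and 5 UMIs in combination against 27, 44, 23, 30 and 38 in agrimoniin. Monocyte-like parts were thin, with 132497 and 125963 UMIs in all. Serpinb9, a granzyme inhibitor gene, had 34 UMIs in agrimoniin, 82.4% of them from 1 barcode, and 0 in combination, at least 10.8-fold lower against a floor of 3 counts in that library. By the same floor Mmp25 was at least 5.70-fold, Dck 5.39-fold and Ass1 3.17-fold lower, while Vcl was at least 4.91-fold, Nupr1 4.56-fold and Tnfaip1 4.21-fold higher. The exact 95% intervals of these ratios, which count error on both sides, start lower, at 8.30-fold for Serpinb9, 4.18 for Mmp25, 3.92 for Dck, 2.13 for Ass1, 3.49 for Vcl, 3.21 for Nupr1 and 2.92 for Tnfaip1. Jup and Top2a had 1 UMI each in agrimoniin against 19 and 16, ratios of 19.99 (3.18 to 830.4) and 16.8 (2.61 to 706), and Tbc1d4 had 50 against 5, with 62.00% of its agrimoniin UMIs from 1 barcode.

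The remaining host lists had medians between -0.26 and 0.14. Heat shock genes had a median of -0.26 (1 of 16 members counted higher and 4 lower), with 14 of 16 below 0, Hspd1 (345 CPM in agrimoniin and 169.9 in combination) and Hspe1 (-0.49), mitochondrial chaperonin genes, among the lower, and Hspa1b (-0.60), which has a near-identical copy, Hspa1a. Immediate early genes were at 0.12 (5 of 18 members counted higher and 0 lower), with Ier5 (0.58), Egr1 (0.49), Jund (0.41) and Zfp36 (0.37) higher. The mouse ERK output list was at 0.14 (3 of 15 members counted higher and 2 lower), with Dusp4 (47.1 CPM in agrimoniin and 107 in combination, beside 105 in control and 58.5 in erlotinib) and Fosl1 (0.52) higher and Ccnd1 (-0.54) and Spry1 (-0.48) lower. Mouse EGFR family and ligands had 4 measured members and a median of 0.13, with Egfr at 70.99 CPM in agrimoniin and 92.2 in combination, beside 88.7 in control and 59.3 in erlotinib, Nrg1 at -0.67, Ereg at 0.28 and Hbegf at -0.02. The NRF2 and haem list was at -0.19 (1 of 12 members counted higher and 4 lower), with Gclc (-0.65) and Fth1 (-0.51) lower and Gclm (0.57) and G6pdx (0.52) higher. The S and G2/M list was at -0.05 (2 of 12 members counted higher and 5 lower), on low counts, with Cdc20 (-0.67), Rrm1 (0.61), Cdk1 (0.61) and Ccnb1 (-0.57) furthest from 0.

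**Figure D5:**
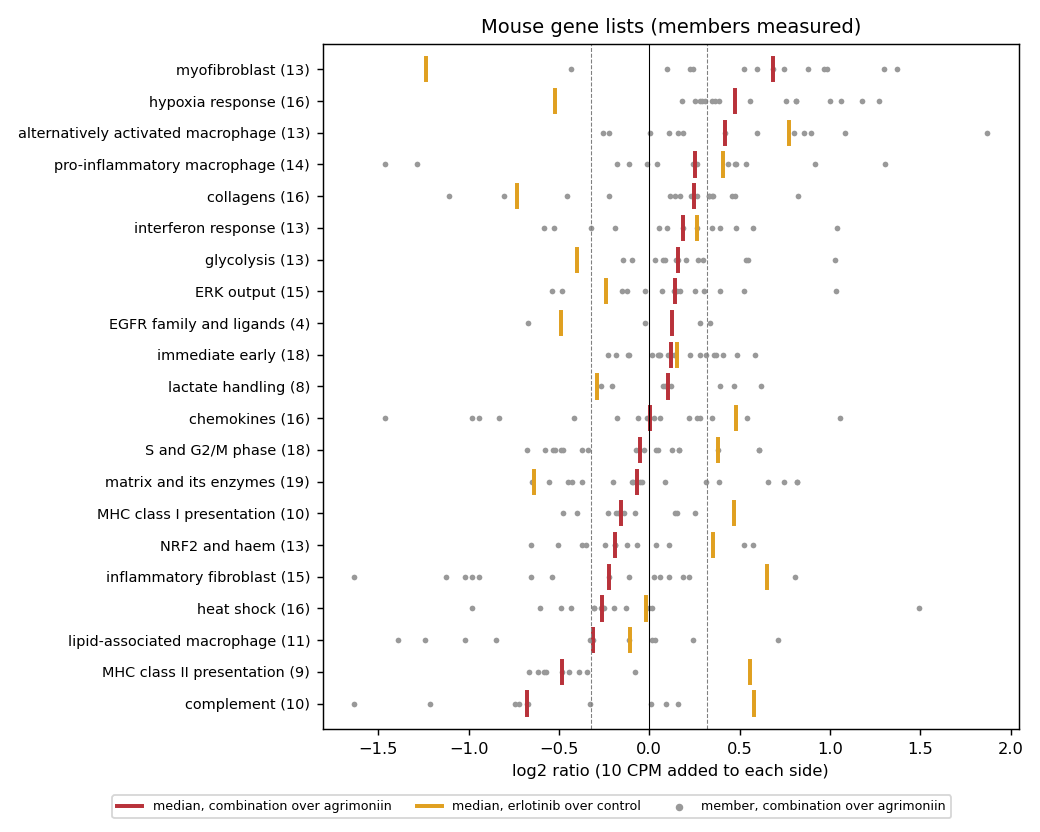
Mouse gene lists over all mouse parts, ordered by their median log2 ratio of combination over agrimoniin (red bar), with each measured member as a grey point, the number measured in parentheses and the median of erlotinib over control as a yellow bar; dashed lines mark 0.32 on either side of 0. The red and yellow bars lie on opposite sides of 0 for many lists, among them myofibroblast, hypoxia response, collagen, complement and MHC class II. The same holds for ERK output, EGFR family and ligands, inflammatory fibroblast, glycolysis, lactate handling, MHC class I, NRF2 and haem, and S and G2/M.

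Set beside erlotinib against control as a whole, the comparison shared little. Across 7174 human genes the log2 ratios of the 2 pairs had a Pearson correlation of 0.06, and across 6679 mouse genes -0.09, both given as descriptions over genes, which are not independent. Of 114 human genes past 0.32 in both pairs, 61 had the same direction and 53 the opposite. Of 881 mouse genes past it in both, 326 had the same direction and 555 (63.0%) the opposite. Erlotinib was the added drug in both pairs, and the pairs differ in whether agrimoniin was there and in every other respect in which 4 single libraries can differ, which cannot be told apart.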

How the data were processed

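Single-cell libraries of control, agrimoniin, erlotinib and combination tumours (1 each) were read as UMI count matrices that the authors deposited, with 36601 human and 32285 mouse features. Per the submitters' processing notes Cell Ranger (no version stated there) was run with hg38 and mm10. A barcode was 27 bases long, unlike those of the kit that the labels name. No deposited annotation of cells was used. The members and gene lists were chosen with earlier results of these data known.

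Human and mouse UMIs of a barcode were separated into parts, kept with at least 500 UMIs, 250 genes and at most 25% mitochondrial UMIs, and summed per library as counts per 1000000 UMIs of that species (CPM). Doublets were not removed, since every barcode held both species. Ratios of summed counts have exact conditional 95% intervals (scipy 1.17.1), shares have Clopper-Pearson intervals, and the count floor was 3 UMIs per library. Log2 ratios add 10 CPM to each side. Genes were counted past a log2 ratio of 0.32 and past 1.5-fold at a mean of at least 20 CPM, and list medians used members at 10 CPM or more. There was no test and no p-value, since each treatment had 1 library. Total human counts per library and the interval method, checked on simulated counts, set the precision.

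Named genes were the 12 highest and 12 lowest human and 8 highest and 8 lowest mouse log2 ratios with a mean of at least 20 CPM that were detected in 10% or more of parts in the higher library, the 5 highest and 5 lowest in each host class with at least 20 parts per library, EGFR, DUSP6, LDHA and MKI67, and the 4 largest differences per list (30 human and 21 mouse lists). Label check markers and mouse genes of the same symbol are also given. Within host classes Col1a1, Ndrg1, Vegfa, C1qc and Folr2 were chosen after their values were seen. Some genes that this rule names are not reported here. Mouse parts of all libraries were clustered by the Leiden method (scanpy 1.11.5, resolution 0.5, on a graph of 15 neighbours from 20 principal components of 2000 variable genes). A cluster was named from at least 3 markers found in at least 25% of its parts and 1.5-fold above the rest, a rule set after the clusters were seen. Positions are from GENCODE release 29 for 34616 of the human features, and promoters from RefSeq (GRCh38.p14). Python 3.11.15, numpy 2.4.6, pandas 2.3.3 and matplotlib 3.10.9 were used. The alternatives were another pseudocount, level filter, scaling, human share, mitochondrial limit and weighting of barcodes, no top barcodes, a common minimum of mouse UMIs, and other ways of forming classes.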

Additional observations from a re-analysis of the deposited data

Results flagged for a closer look

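Some host genes and lists lay on opposite sides of their partner library with and without agrimoniin. With 1 library per group the difference between the 2 log2 ratios was not tested, and values are given only as measured. Grem1 had a log2 ratio of 1.37 for combination over agrimoniin and -1.999 for erlotinib over control, a difference of 3.37. Cryab had 1.49 and -1.20, a difference of 2.70, with much of its combination signal in a single barcode. Angptl2 had 1.07 and -1.53 (difference 2.60), Tpm1 had 1.30 and -1.09 (2.38), and Bnip3 had 1.18 and -1.18 (2.36). In the other direction Cxcl9 had -1.29 and 1.53 (difference -2.82), Slc4a4 had -1.63 and 0.81 (-2.44), Ccr2 had -1.29 and 0.95 (-2.24), and Ccl5 had -1.46 and 0.73 (-2.19).

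Among the mouse lists, the myofibroblast median was 0.68 with agrimoniin present and -1.23 without it, a difference of 1.92. Within the Grem1-led cluster it was 0.36 and -0.58, and within the Prg4-led cluster 0.55 and 0.09. The hypoxia response median was 0.47 and -0.52 (difference 0.99), the complement median -0.68 and 0.58 (-1.26), and the MHC class II presentation median -0.48 and 0.55 (-1.04). These medians are over all mouse parts, and the opposition was not kept in every class. In macrophage-like parts the MHC class II median was -0.27 and -0.01, and the complement median -0.23 and 0.26. In the Grem1-led cluster they were -1.85 and 2.67 for MHC class II and -0.99 and 1.13 for complement. In the Prg4-led cluster they were -2.79 and -1.16, and -1.11 and -0.19, each on the same side of 0. The MHC class II medians rest on 5 measured members in either cluster. Their counting errors for combination over agrimoniin were 0.55 (Grem1-led) and 0.60 (Prg4-led). In fibroblast-like parts of agrimoniin, 60.3% to 69.4% of the UMIs of H2-Eb1, Cd74, H2-Aa and Ctss came from 1 barcode each. Pericyte or smooth muscle markers, which share contractile genes with myofibroblasts, summed to 276 CPM in agrimoniin and 258 in combination, but to 501 in control and 73.0 in erlotinib. Their part in the myofibroblast difference was not tested.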

How the results depend on the processing

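No paired analysis was possible because each treatment had 1 library and no result came from a test. Gene counts depended on the thresholds. Human genes counted higher and lower (a log2 ratio of at least 0.32 either way) numbered 415 and 540 with a pseudocount of 1 CPM, 122 and 113 at a mean of at least 50 CPM, and 420 and 527 in parts with at most 10% mitochondrial UMIs. At 1.5-fold these were 44 and 63, 8 and 1, and 52 and 50, and they were 41 and 40 in barcodes with at least 75% human UMIs, with 23 lower when barcodes were weighted equally. Mouse genes past 0.32 at 50 CPM numbered 428 higher and 487 lower, and past 1.5-fold 107 and 114, or 388 and 456 with a pseudocount of 1 CPM. With at most 10% mitochondrial UMIs the human list medians were -0.11 for immediate early, -0.24 for heat shock, -0.27 for NRF2 and haem, -0.037 for mitochondrial-encoded, 0.073 for nuclear oxidative phosphorylation, -0.25 for NF-kB and cytokines, -0.26 for mesenchymal, 0.11 for EMT transcription factors, -0.011 for epithelial, -0.23 for YAP and TEAD targets and -0.35 for basement membrane. In barcodes with at least 75% human UMIs they were -0.17 for EGFR family and ligands, 0.0051 for polyamine, -0.032 for mitochondrial-encoded, -0.27 for NF-kB and cytokines, 0.020 for EMT transcription factors and -0.041 for epithelial. At 50 CPM they were -0.10 for NRF2 and haem, -0.13 for lactate handling, -0.15 for G2/M phase, 0.16 for MHC class I presentation and 0.18 for ephrins and receptors, and with barcodes weighted equally mitochondrial-encoded genes were at -0.13. NRG1 was at 0.038 with at least 75% human UMIs and at 0.10 with at most 10% mitochondrial UMIs. Settings added after seeing the data read named human genes by the host part of the barcode. Beside fibroblast-like parts the sign turned for CCN2 (0.27), DDIT4 (-0.069), IFI6 (-0.094), MT-ND6 (-0.18), PRRX1 (0.10), SLC7A11 (0.48), SPARC (0.63) and THBS1 (0.77). Beside macrophage-like parts it turned for SERPINA3 (-0.52), CCNB2 (-0.078), NRG1 (0.033) and TNFRSF10A (0.022). Several of these rest on few UMIs in combination and agrimoniin. Beside fibroblast-like parts they were 15 and 14 for PRRX1, 17 and 20 for IFI6, and 19 and 11 for SLC7A11. Beside macrophage-like parts they were 27 and 39 for CCNB2, and 23 and 30 for TNFRSF10A. Mouse list medians were 0.14 for pro-inflammatory macrophage, -0.11 for lipid-associated macrophage and 0.13 for S and G2/M phase at 50 CPM. They were 0.13 for pro-inflammatory macrophage, 0.24 for alternatively activated macrophage and -0.37 for complement with barcodes weighted equally. The inflammatory fibroblast median was -0.070 at a common minimum of 2086 mouse UMIs and -0.53 with each gene read without its top barcode, a setting added later, and the hypoxia response median was 0.60 with a pseudocount of 1 CPM. Within fibroblast-like parts the interferon response median turned to -0.024 without top barcodes and to -0.14 with classes from marker counts, both added later. Leiden resolution 1.0 gave shares of 39.7% macrophage-like parts in agrimoniin, and 9.09% and 12.4% monocyte-like parts in agrimoniin and combination. Classes from marker counts gave 21.5% and 22.9% fibroblast-like, 9.09% and 6.43% monocyte-like, and 6.06% and 8.43% pericyte or smooth muscle-like parts in agrimoniin and combination, and 4.02% endothelial-like parts in combination. The cause of these shifts was not tested. Of all other values, 1119 of named human genes, 234 of human lists, 525 of mouse genes and 158 of mouse lists moved by no more than their counting error, while 137 of human and 19 of mouse genes moved further with no counted gene changing sign. Of the list medians within host classes, 50 in fibroblast-like and 54 in macrophage-like parts stayed within that error. Another 8 and 6 moved further, besides the 2 fibroblast-like values that turned in sign.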
